A study of Homo sapiens with 32 samples.

Results

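C4-2B, a castration-resistant prostate cancer cell line derived from LNCaP, was transfected with small interfering RNAs (siRNAs) against MOCOS and left without or given thapsigargin (TG). The comparison described here sets siMOCOS columns 1 and 2 against siMOCOS columns 3 and 4 of that line, with TG as a covariate, so that 4 knockdown libraries stand on each side. These are 8 of the 32 RNA-seq libraries of the series. The sample titles list 2 libraries of each of 2 siRNAs against MOCOS in every TG state, while the columns of the count table carry a number and no siRNA name. The column pairs are therefore named by their numbers, and an effect of the siRNA cannot be told apart from any other difference between the columns.

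The groups used were C4-2B siMOCOS columns 1-2, siMOCOS columns 3-4 and siCTRL, a control siRNA, each without and with TG. LNCaP, an androgen-sensitive prostate cancer line, was given the same agents and serves for comparison. All were grown in RPMI 1640 with fetal bovine serum, glutamine, penicillin and streptomycin, and polyA RNA was sequenced after a strand-specific TruSeq preparation. The design text describes the controls without TG as given vehicle and the replicates as biological. The dose and duration of TG and of the siRNAs are not stated in the labels. Each group is 1 cell line, so the p-values measure the spread between cultures of that line.

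MOCOS encodes molybdenum cofactor sulfurase, which adds the terminal sulfur to the cofactor that aldehyde oxidase (AOX1) and xanthine dehydrogenase (XDH) carry. XDH converts hypoxanthine to xanthine and xanthine to uric acid at the end of purine breakdown. TG blocks the calcium pump of the endoplasmic reticulum (ER) and so sets off the unfolded protein response, whose sensors ATF6, IRE1 and PERK act through cleaved ATF6, spliced XBP1 (XBP1s) and ATF4 with CHOP. An siRNA guides Argonaute to matching transcripts, and a short match between its 5′ end and a 3′ untranslated region (3′ UTR) can lower transcripts other than the intended one, as a microRNA does.

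Library totals were 17331169 to 22238356 estimated counts in the 8 knockdown libraries and 12426702 to 24362179 in the 8 C4-2B siCTRL libraries. Replicates within a column pair were separate libraries: their counts differed by 10.9 to 24.2 chi-square units per gene. Over the 8 knockdown libraries the first principal component separated the TG states (50.7% of the variance) and the second separated the column pairs (24%). Without TG, the deviation of each gene from the mean followed its GC content with a Spearman correlation of -0.42 and -0.28 in columns 1-2, against 0.39 and 0.33 in columns 3-4. With TG these correlations were -0.09 and 0.49 in columns 1-2, against -0.53 and 0.17 in columns 3-4. Luminal epithelium markers summed to 3110 to 4650 CPM, counts scaled to library size, in columns 1-2, 2490 to 4600 CPM in columns 3-4 and 1950 to 3700 CPM in siCTRL, and the 4 immune and blood markers in the table summed to at most 0.258 CPM in any of these libraries. The 4 basal markers summed to at most 3.9 CPM, and the endothelial and mesenchymal lists to at most 6.97 and 42 CPM.

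MOCOS was lower in columns 1-2 than in columns 3-4 in both TG states. Without TG it had 2.38 and 2.98 CPM in columns 1-2, against 4.12 and 4.84 CPM in columns 3-4 and 34.4, 35.7, 31.2 and 31.1 CPM in siCTRL. With TG it had 12.3 and 11.2 CPM in columns 1-2, against 19.7 and 19.8 CPM in columns 3-4 and 94.1, 95.8, 89.2 and 93.7 CPM in siCTRL. In each TG state every library of columns 1-2 lay below every library of columns 3-4, and all 4 knockdown columns lay far below siCTRL. The log2 difference, columns 1-2 minus columns 3-4, was -0.74 (SE 0.132, n = 4 a side, edgeR adjusted p = 0.00285). It was -0.74 without TG (edgeR adjusted p = 0.0195), -0.74 with TG (edgeR adjusted p = 0.00709), and its difference between TG states was -0.00 (edgeR adjusted p = 0.999). Against siCTRL, MOCOS fell by 3.62 on the log2 scale in columns 1-2 and by 2.88 in columns 3-4 without TG, and by 2.98 and 2.24 with TG, in comparisons that share the siCTRL libraries. The call without TG was lost when column 1, 3 or 4 was left out (edgeR adjusted p = 0.15, 0.0567 and 0.108), and the call with TG when TG column 2 was left out (0.0504). Over both states MOCOS was called in all 8 leave-one-out fits, with log2 differences of -0.80 to -0.69.

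XDH and AOX1, the enzymes that need the sulfurated cofactor, differed between the column pairs only in part. XDH had 3.09 and 4.19 CPM in columns 1-2 without TG, against 5.93 and 6.16 CPM in columns 3-4 and 1.59 to 2.11 CPM in siCTRL. In TG its levels were 28.9 and 31.0 CPM in columns 1-2, against 29.8 and 28.4 CPM in columns 3-4 and 15.9 to 20.6 CPM in siCTRL. The pairs did not overlap without TG and overlapped with TG, and both stood above siCTRL in each state. Its log2 difference was -0.73 without TG (edgeR adjusted p = 0.0157) and 0.05 with TG (edgeR adjusted p = 0.839), and the difference between the states did not pass (0.78, edgeR adjusted p = 0.0619). It passed in edgeR with upper-quartile factors (0.89, adjusted p = 0.0461), with the GC and length offset (0.79, adjusted p = 0.038) and without TG column 4 (adjusted p = 0.0415). The call without TG was lost without column 1, 3 or 4. Against siCTRL, XDH rose by 0.92 in columns 1-2 and by 1.65 in columns 3-4 on the log2 scale without TG, and by 0.73 and 0.68 with TG. AOX1 was near the floor, at 1.08 and 0.828 CPM in columns 1-2 without TG, against 0.384 and 0.102 CPM in columns 3-4 and 0 to 0.176 CPM in siCTRL. Its log2 difference of 1.97 without TG (edgeR adjusted p = 0.0376) was not called by DESeq2 (adjusted p = 0.0829).

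**Figure D1:**
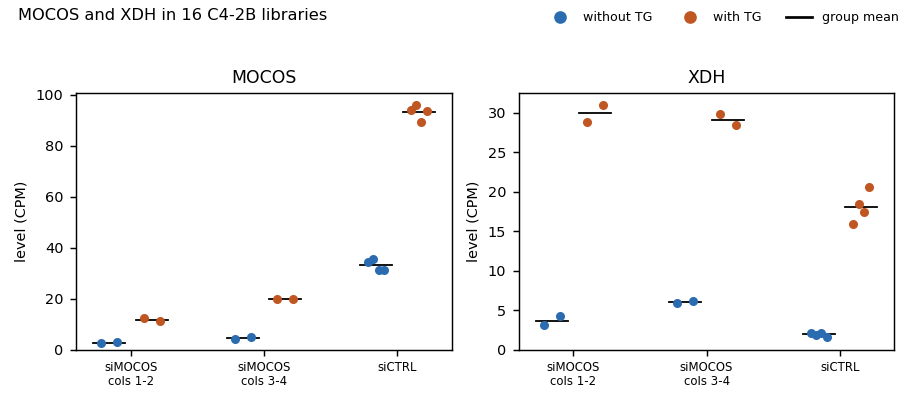
MOCOS and XDH in every C4-2B library, in CPM (TMM-scaled) on a linear axis, with siMOCOS columns 1-2, siMOCOS columns 3-4 and siCTRL from left to right. Points are libraries, coloured by TG state, lines are group means, and MOCOS sits at 2.38 to 4.84 CPM in the knockdown columns without TG, against 31.1 to 35.7 CPM in siCTRL.

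Beyond the target, 3767 of 14323 tested genes differed between the column pairs (26.3%), of which 1884 were higher (13.2%) and 1883 lower (13.1%) in columns 1-2. A difference of at least 1 on the log2 scale was found for 457 genes that were higher (3.19%) and 428 that were lower (2.99%). Within the TG states, 3933 genes differed without TG (27.5%; 2066 higher, 14.4%, and 1867 lower, 13%) and 4356 with TG (30.4%; 2004 higher, 14%, and 2352 lower, 16.4%). With upper-quartile scaling the split with TG was 2753 higher and 1965 lower, and the median of all genes with TG moved to 0.105 log2 from 0.013. Leaving out 1 library gave 2386 (without TG column 1) to 4740 genes (without TG column 3) over both states, 1351 to 1543 without TG when any 1 of its 4 columns was left out, and 2691 with TG without TG column 2. A GC and length offset gave 5683 genes.

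For scale, the column pairs were each set against siCTRL in fits that share the siCTRL libraries, over 14608 genes. Without TG, columns 1-2 differed from siCTRL at 4714 genes (32.3%; 15.8% higher, 16.5% lower) and columns 3-4 at 2617 genes (17.9%; 8.44% higher, 9.47% lower). With TG, columns 1-2 differed at 4718 genes (32.3%; 15.7% higher, 16.6% lower) and columns 3-4 at 2884 genes (19.7%; 10.6% higher, 9.13% lower). With upper-quartile scaling the splits without TG were 2902 higher and 2016 lower for columns 1-2, and 1683 higher and 1128 lower for columns 3-4, against 2307 and 2407, and 1233 and 1384, with TMM. Without 1 of its own 2 knockdown columns a pair gave 2418 or 2740 genes (columns 1-2) and 1276 or 1179 genes (columns 3-4) without TG, and 2948 or 2989 genes (columns 1-2) with TG. Columns 3-4 with TG gave 1498 genes without TG column 3.

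The greatest rises in columns 1-2, among genes of at least 5 CPM whose pairs did not overlap in either TG state, were in POMP, NIPSNAP3A, ELL2, SMIM13, SCARA3, CPNE4, SLC40A1 and TMTC1. POMP, a chaperone of proteasome assembly (chr13:28659130-28678959, GRCh38), had 306 and 294 CPM in columns 1-2 without TG and 224 and 178 CPM with TG, against 22 and 23.9 CPM and 32.3 and 22.3 CPM in columns 3-4. Its siCTRL libraries were at 229 to 240 CPM without TG and 108 to 131 CPM with TG, so columns 3-4 lay far below siCTRL in both states. The log2 difference between the pairs was 3.30 (SE 0.196, edgeR adjusted p = 8.26e-06). NIPSNAP3A, a mitochondrial protein of the NIPSNAP family, had 59.3 and 56.8 CPM in columns 1-2 without TG and 55.0 and 50.3 CPM with TG, against 10.8 and 11.6 CPM and 7.86 and 5.04 CPM in columns 3-4. Its siCTRL libraries ranged from 15.2 to 40.4 CPM without TG and from 18.2 to 33.8 CPM with TG, so columns 3-4 were again below siCTRL, and columns 1-2 were above it. The log2 difference was 2.70 (SE 0.180, edgeR adjusted p = 1.43e-05).

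In SMIM13, a small membrane protein, and SCARA3, a scavenger receptor, columns 3-4 also lay below siCTRL. SMIM13 had 90.2 and 82.0 CPM in columns 1-2 without TG and 136 and 126 CPM with TG, against 14.4 and 12.5 CPM and 34.5 and 31.1 CPM in columns 3-4. Its siCTRL range was 48.4 to 70.4 CPM without TG and 86.7 to 131 CPM with TG, and the log2 difference was 2.33 (SE 0.148, edgeR adjusted p = 1.12e-05). SCARA3 had 17.0 and 16.7 CPM in columns 1-2 without TG and 9.25 and 13.9 CPM with TG, against 4.01 and 4.48 CPM and 1.87 and 2.67 CPM in columns 3-4. Columns 1-2 overlapped or bordered the siCTRL ranges of 16.1 to 21.8 CPM and 11.4 to 12.6 CPM, and the log2 difference was 2.15 (SE 0.185, edgeR adjusted p = 5.15e-05). SLC40A1, the iron exporter ferroportin, had 6.77 and 7.61 CPM in columns 1-2 without TG, against 1.59 and 1.58 CPM in columns 3-4 and 3.09 to 5.57 CPM in siCTRL. With TG the values were 8.86 and 9.77 CPM in columns 1-2, against 2.03 and 2.45 CPM in columns 3-4 and 2.93 to 4.23 CPM in siCTRL, so siCTRL lay between the pairs in both states. Its log2 difference was 2.11 (SE 0.159, edgeR adjusted p = 2.65e-05).

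In ELL2, CPNE4 and TMTC1 the pair that stood farther from siCTRL was columns 1-2. ELL2, a subunit of the super elongation complex and an androgen receptor target, had 309 and 305 CPM in columns 1-2 without TG and 267 and 262 CPM with TG, against 68.8 and 55.3 CPM and 54.5 and 43.3 CPM in columns 3-4. Its siCTRL libraries were at 74.1 to 92.7 CPM without TG and 84.7 to 98.7 CPM with TG. The log2 difference was 2.37 (SE 0.11, edgeR adjusted p = 3.39e-06), and ELL2 rose by 1.86 in columns 1-2 against siCTRL and fell by 0.44 in columns 3-4 without TG. CPNE4, a copine that binds phospholipid with calcium, had 4.6 and 6.46 CPM in columns 1-2 without TG, against 1.21 and 0.967 CPM in columns 3-4 and 1.08 to 1.86 CPM in siCTRL. With TG it had 20.9 and 24.3 CPM in columns 1-2, against 5.44 and 5.90 CPM in columns 3-4 and 3.88 to 4.74 CPM in siCTRL, and the log2 difference was 2.13 (SE 0.171, edgeR adjusted p = 3.53e-05). TMTC1, an ER mannosyltransferase, had 29.5 and 26.9 CPM in columns 1-2 without TG and 32.3 and 26.7 CPM with TG, against 3.73 and 4.22 CPM and 13.0 and 11.8 CPM in columns 3-4. Its siCTRL ranges were 3.94 to 6.63 CPM and 6.53 to 7.71 CPM, and the log2 difference of 1.99 (SE 0.284, edgeR adjusted p = 0.000879) was smaller with TG (1.25) than without (2.82).

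The greatest falls in columns 1-2 were in VCX3A, SMKR1, VCX, RAB31, MPLKIP, STAMBP, NIPSNAP1 and RNF20, and in these columns 3-4 lay at, near or above the siCTRL level. STAMBP, a deubiquitinase of the endosomal sorting pathway (chr2:73828961-73873656), had 11.7 and 9.71 CPM in columns 1-2 without TG, against 55.0 and 51.3 CPM in columns 3-4 and 34.4 to 57.9 CPM in siCTRL. In TG its levels were 11.7 and 8.94 CPM in columns 1-2, against 85.7 and 76.0 CPM in columns 3-4 and 29.2 to 46.7 CPM in siCTRL. The log2 difference was -2.64 (SE 0.166, edgeR adjusted p = 1.08e-05). RNF20, the ubiquitin ligase of histone H2B (chr9:101533853-101563344), had 40.6 and 37.5 CPM in columns 1-2 without TG and 22 and 21.9 CPM with TG, against 146 and 147 CPM and 166 and 167 CPM in columns 3-4. The siCTRL ranges were 118 to 197 CPM and 131 to 201 CPM, which held columns 3-4 in both states. Its log2 difference was -2.41 (SE 0.188, edgeR adjusted p = 3.29e-05), greater with TG (-2.92) than without (-1.91; edgeR adjusted p of the difference = 0.0115).

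NIPSNAP1, a mitochondrial relative of NIPSNAP3A, moved the other way from it. It had 30.6 and 33.9 CPM in columns 1-2 without TG and 21.6 and 16.8 CPM with TG, against 166 and 176 CPM and 138 and 122 CPM in columns 3-4. The siCTRL ranges were 95.7 to 127 CPM and 86.8 to 107 CPM, so the pairs stood on either side of siCTRL, and the log2 difference was -2.58 (SE 0.124, edgeR adjusted p = 3.39e-06). RAB31, a small GTPase of vesicle traffic, had 1.84 and 1.54 CPM in columns 1-2 without TG and 1.29 and 0.987 CPM with TG, against 13.9 and 12.4 CPM and 12.8 and 10.2 CPM in columns 3-4. Its log2 difference was -3.13 (SE 0.181, edgeR adjusted p = 8.13e-06), with siCTRL at 11 to 15.6 CPM and 6.64 to 10.8 CPM. MPLKIP, which is mutated in a form of trichothiodystrophy, had 2.11 and 2.43 CPM in columns 1-2 without TG, against 17.1 and 18.5 CPM in columns 3-4 and 10.3 to 18.6 CPM in siCTRL. With TG the values were 2.13 and 2.29 CPM in columns 1-2, against 10.0 and 14.2 CPM in columns 3-4 and 6.88 to 14.3 CPM in siCTRL, and the log2 difference was -2.71 (SE 0.182, edgeR adjusted p = 1.43e-05). SMKR1, a small lysine-rich protein, had 1.03 and 1.10 CPM in columns 1-2 without TG, against 13.1 and 13.5 CPM in columns 3-4 and 4.33 to 11.3 CPM in siCTRL, with a log2 difference over both states of -3.79 (SE 0.225, edgeR adjusted p = 8.26e-06). VCX3A and VCX, X-linked genes of the testis, had log2 differences of -4.07 (SE 0.376) and -3.67 (SE 0.206), but they belong to a family of near-identical copies between which the authors' counting could split reads, so their values are uncertain.

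**Figure D2:**
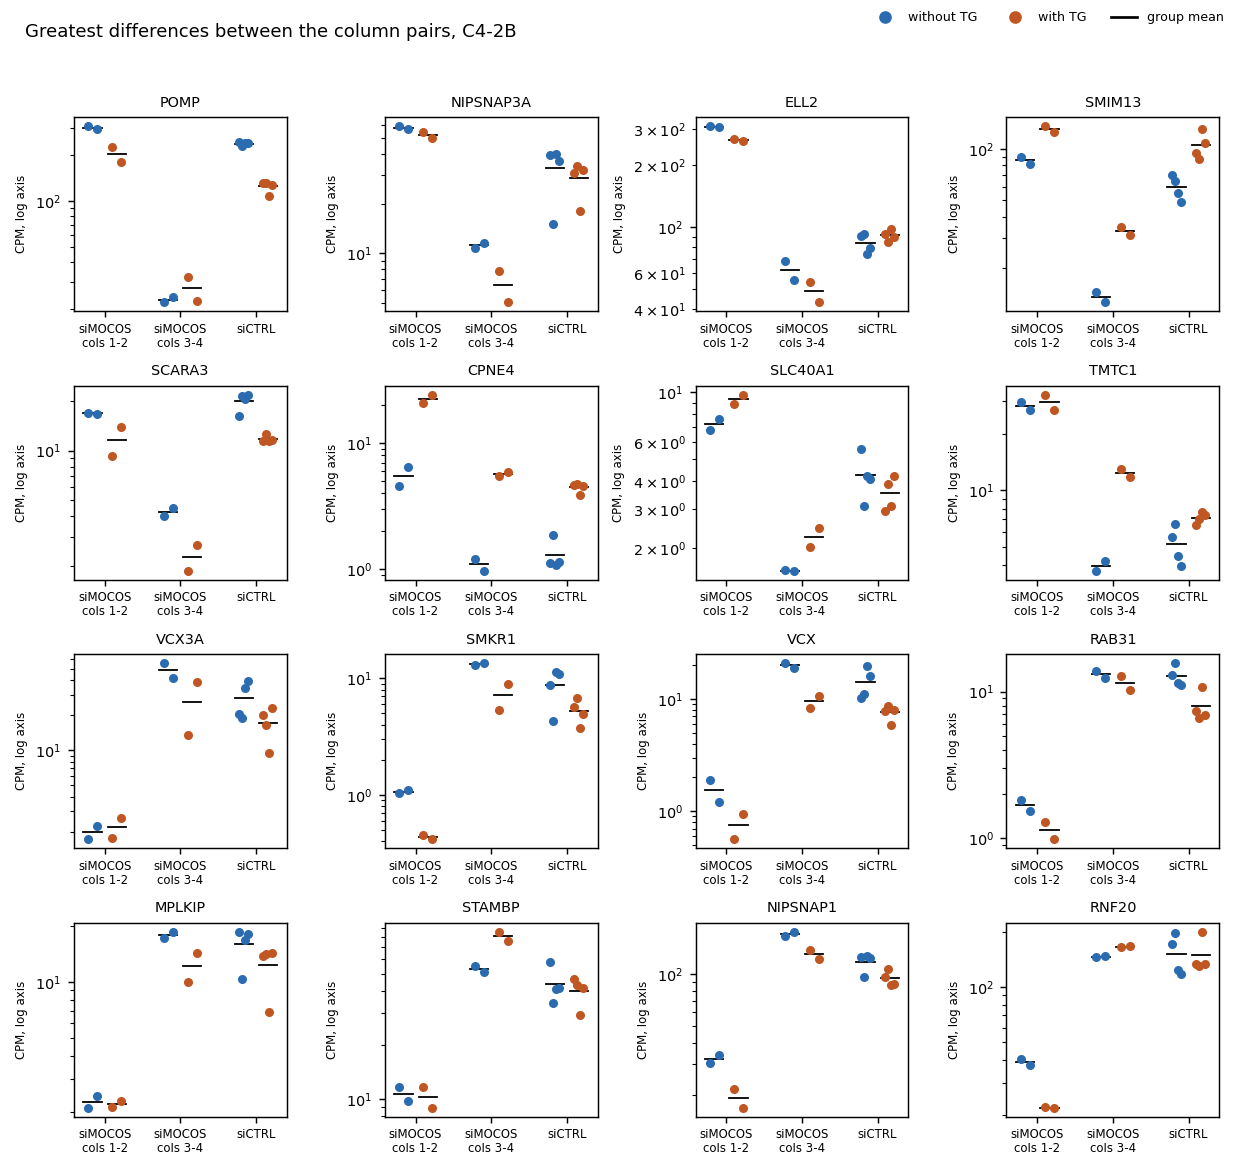
The 8 genes with the greatest rise (upper panels) and the 8 with the greatest fall (lower panels) in columns 1-2, in CPM on a log axis, for siMOCOS columns 1-2, siMOCOS columns 3-4 and siCTRL from left to right, where points are libraries coloured by TG state and lines are group means. In POMP, NIPSNAP3A, SMIM13 and SCARA3 columns 3-4 stand below siCTRL, in ELL2 and CPNE4 columns 1-2 stand above it, and in STAMBP, RAB31 and RNF20 columns 1-2 stand below it.

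The 3′ UTRs of the genes that differed were searched for words of 7 letters on the sense strand, with the longest annotated 3′ UTR of each gene (GENCODE v29, GRCh38). Of the tested genes 12074 had one (84.3%). All 16384 words were compared and the leading words were chosen after their shares were seen, so the shares are a description without a test. The word with the greatest excess share among the 363 genes lower by at least 1 log2, over its share of all tested genes, was GTCAGGA, which 152 of them held (41.9%), against 17.6% of all tested 3′ UTRs and 13.1% of the 375 genes higher by at least 1 log2. The word with the greatest excess among those 375 higher genes was CTGCTAT, which 101 of them held (26.9%), against 11.3% of all and 7.99% of the lower genes. The runners-up, TCAGGAA (41.9% of the lower genes, against 19.8% of all) and GCTGCTA (21.1% of the higher genes, against 10.4% of all), each overlap their leader by 6 letters. The reverse complements showed no such difference: TCCTGAC was held by 19.6% of the lower, 18.9% of the higher and 18.4% of all genes, and ATAGCAG by 11.6%, 11.5% and 10.6%.

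The sites are shown for the coding sequence of MOCOS, which holds both words, and for 8 of the genes named above whose 3′ UTR holds the word of their direction. Capitals mark the word, the letters run 5′ to 3′ on the transcribed strand, and positions are of GRCh38.
MOCOS (coding, chr18:36213454-36213482, plus strand): gcaacgagatgGTCAGGAagcattttcag
MOCOS (coding, chr18:36220074-36220102, plus strand): gaaaccaagggCTGCTATatgaccggagc
SMKR1 (3′ UTR, chr7:129512483-129512511, plus strand): ggggaagagaaGTCAGGAtaacacaactg
RAB31 (3′ UTR, chr18:9860780-9860808, plus strand): atatcgcaaaaGTCAGGAaagaggttgtg
MPLKIP (3′ UTR, chr7:40133010-40133038, minus strand): aagcttcatgtGTCAGGAacatcttggac
STAMBP (3′ UTR, chr2:73862803-73862831, plus strand): agaatgattttGTCAGGAattattgttat
NIPSNAP3A (3′ UTR, chr9:104759359-104759387, plus strand): catttcattaaCTGCTATaggatctgtct
ELL2 (3′ UTR, chr5:95887791-95887819, minus strand): ctatttatataCTGCTATaaagtattttt
SMIM13 (3′ UTR, chr6:11138485-11138513, plus strand): tattctgtggtCTGCTATgatgcattgcc
CPNE4 (3′ UTR, chr3:131534782-131534810, minus strand): cttggttttatCTGCTATaggatgagaga

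Among the 8 greatest falls, SMKR1, MPLKIP and RNF20 hold GTCAGGA at 2 places each and RAB31, STAMBP and NIPSNAP1 at 1 place, while VCX and VCX3A hold it at none. Among the 8 greatest rises, ELL2 holds CTGCTAT at 2 places and NIPSNAP3A, SMIM13 and CPNE4 at 1 place, while POMP, SCARA3, SLC40A1 and TMTC1 hold it at none. MPLKIP and STAMBP also hold CTGCTAT, at 2 places and at 1 place. Over all tested genes the median log2 difference was 0.01 with no GTCAGGA, -0.11 with 1 copy and -0.12 with 2 or more copies, and -0.03, 0.12 and 0.18 with as many copies of CTGCTAT. Against siCTRL, genes with GTCAGGA had a median log2 change of -0.10 in columns 1-2 without TG and -0.13 with TG, and genes without it -0.01 and 0.05. In columns 3-4 the medians were -0.04 and 0.03 with GTCAGGA, and -0.01 and 0.01 without it. For CTGCTAT the order of the pairs was turned round without TG, with medians of 0.07 in columns 1-2 and -0.16 in columns 3-4 for genes that hold it, and -0.04 and 0.00 for genes that do not. With TG the medians of the genes that hold CTGCTAT were 0.01 in columns 1-2 and -0.04 in columns 3-4. The median 3′ UTR was 1480 bases in the lower genes, 1585 bases in the higher genes and 1400 bases in all. Words of 6 letters led to TCAGGA and CTGCTA, words of 8 letters to GTCAGGAA for the lower genes but AAATAAAA for the higher genes, and a log2 limit of 0.5 or the shortest 3′ UTR to the same words of 7 letters. The siRNA sequences were not analysed here, so whether either word matches one was not tested.

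**Figure D3:**
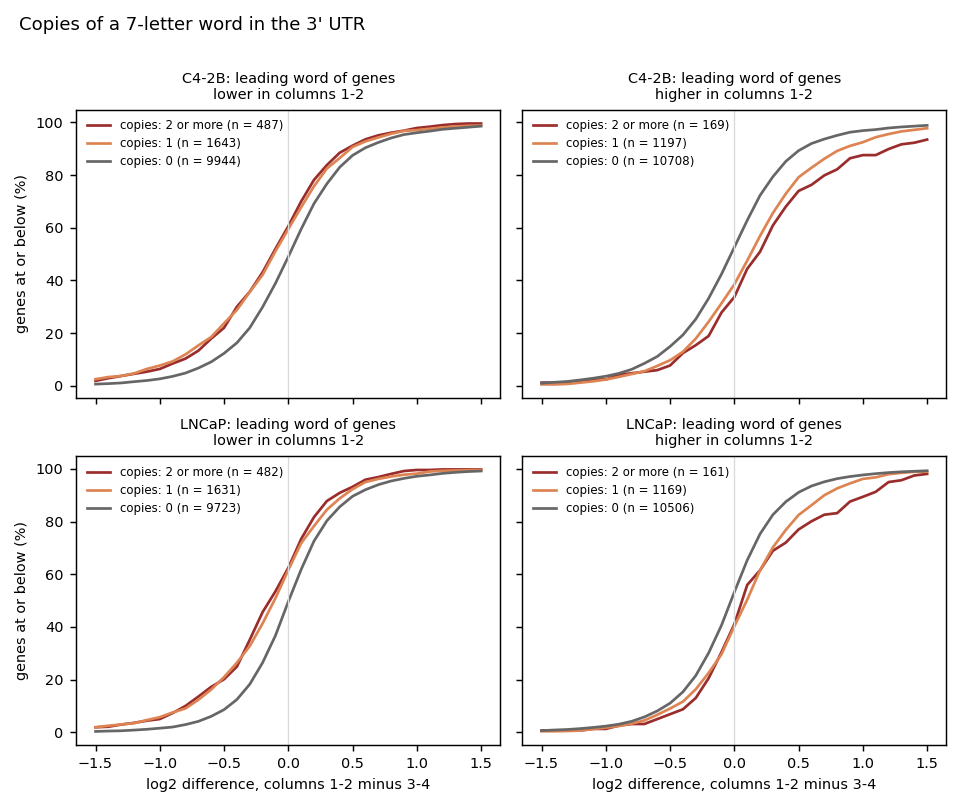
Cumulative share of genes (y, percent) by log2 difference between columns 1-2 and columns 3-4 (x), for tested genes with 2 or more, 1 and 0 copies in the 3′ UTR of GTCAGGA (left) and CTGCTAT (right), in C4-2B (upper) and LNCaP (lower). In C4-2B the curves with GTCAGGA lie to the left of the curve without it (medians -0.12 and -0.11, against 0.01), and the curves with CTGCTAT to its right (0.18 and 0.12, against -0.03).

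Most ATF6 targets and a part of the XBP1s targets were lower in columns 1-2 without TG. With TG more of either list were higher than lower, the higher XBP1s targets near the share of all tested genes. Of all tested genes 14.4% were higher and 13% lower without TG, and 14% were higher and 16.4% lower with TG. Of 15 ATF6 targets 12 were lower without TG and 0 higher (median log2 difference -0.57, against -0.002 for all tested genes), while with TG 0 were lower and 4 higher (median 0.15, against 0.013). Of 34 XBP1s targets 14 were lower and 0 higher without TG (median -0.17), and 3 were lower and 6 higher with TG (median 0.14). CRELD2, an ER chaperone chosen after its values were seen, had 27.4 and 27.2 CPM in columns 1-2 without TG, against 44.6 and 49.2 CPM in columns 3-4 and 30.4 to 44.9 CPM in siCTRL. With TG it had 79.0 and 92.3 CPM in columns 1-2, against 41.0 and 52.1 CPM in columns 3-4 and 28.4 to 56.7 CPM in siCTRL. The order of the pairs was opposite in the 2 states and neither overlapped, with log2 differences of -0.78 without TG (edgeR adjusted p = 0.00419) and 0.88 with TG (edgeR adjusted p = 0.00149). SDF2L1, a cofactor of the chaperone BiP that was also chosen after its values were seen, did the same, at -0.99 and 0.56 (edgeR adjusted p = 0.00417 and 0.0301). HSPA5, which encodes BiP and was likewise chosen after its values were seen, had 1740 and 1800 CPM in columns 1-2 without TG, against 1710 and 1980 CPM in columns 3-4, and 8770 and 7000 CPM, against 5750 and 4460 CPM, with TG. Its pairs overlapped without TG (-0.06, edgeR adjusted p = 0.803) and stood apart with TG (0.63, edgeR adjusted p = 0.0124).

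HERPUD1, which acts in the degradation of ER proteins, was the ATF6 target called over both states (log2 difference -0.63, SE 0.161, edgeR adjusted p = 0.0186), a call lost without column 1, 2 or 4 (edgeR adjusted p = 0.0647, 0.069 and 0.0523). It had 152 and 144 CPM in columns 1-2 without TG, against 289 and 322 CPM in columns 3-4 and 184 to 255 CPM in siCTRL. In TG its levels were 1190 and 1030 CPM in columns 1-2, against 1390 and 1180 CPM in columns 3-4 and 513 to 837 CPM in siCTRL, and the pairs overlapped. Among XBP1s targets DERL1, a channel of ER protein degradation, fell in both states (-0.74 and -0.87), as did SEC23B, a coat protein of ER vesicles (-0.96 and -0.52), and STT3A, an oligosaccharyltransferase subunit (-0.67 and -0.39). Left out of the fit, column 1, 2, 3 or 4 took the count of lower XBP1s targets without TG to 3, 7, 8 or 7, and TG column 1 took the higher count with TG to 3, while the 12 ATF6 targets became 8 to 13. With a GC and length offset 11 ATF6 targets were lower without TG and 17 XBP1s targets were higher with TG, where upper-quartile scaling gave 12.

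More PERK-ATF4-CHOP targets were lower than higher in columns 1-2 in both TG states, although with TG most did not pass the test. Of 36 tested, 22 were lower and 1 higher without TG (median -0.52), and 11 were lower and 2 higher with TG (median -0.09). The shares of all tested genes were 13% lower and 14.4% higher without TG, and 16.4% and 14% with TG. DDIT3, which encodes CHOP and was chosen after its values were seen, had 20.3 and 18.4 CPM in columns 1-2 without TG, against 34.3 and 38.4 CPM in columns 3-4 and 19.9 to 44.5 CPM in siCTRL. With TG the values were 202 and 159 CPM in columns 1-2, against 370 and 290 CPM in columns 3-4 and 182 to 293 CPM in siCTRL. The pairs did not overlap in either state, and the log2 differences were -0.91 and -0.87 (edgeR adjusted p = 0.00412 and 0.00239). SLC7A11, the cystine transporter, had 45.7 and 55.1 CPM in columns 1-2 without TG and 292 and 239 CPM with TG, against 134 and 126 CPM and 556 and 572 CPM in columns 3-4. Its siCTRL range was wide, 97.3 to 267 CPM and 363 to 915 CPM, and the log2 difference between the pairs was -1.22 (SE 0.11, edgeR adjusted p = 6.57e-05). ATF3, an ATF4-induced transcription factor likewise chosen after its values were seen, had 200 and 178 CPM in columns 1-2 with TG, against 606 and 545 CPM in columns 3-4 and 425 to 562 CPM in siCTRL. CEBPG, a partner of ATF4, fell by 0.86 on the log2 scale (SE 0.102, edgeR adjusted p = 0.000236), while VLDLR, a lipoprotein receptor, rose by 0.93 (SE 0.117, edgeR adjusted p = 0.000483). TRIB3 and CHAC1, also of this list and chosen after their values were seen, were not called over both states (0.06 and 0.32). Without column 1 or column 3 the 22 lower members became 10 and 11, and without TG column 2 the 11 with TG became 7.

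The difference between the column pairs itself changed with TG at 1408 genes (9.83%), which were more positive with TG at 480 (3.35%) and more negative at 928 (6.48%). With upper-quartile scaling 689 were more positive and 645 more negative, and the median of all genes was 0.082 log2 in place of -0.032. Of the 15 ATF6 targets 10 were more positive with TG and 0 more negative (median 0.76), as were 6 of 34 XBP1s targets (median 0.33), and of 36 PERK-ATF4-CHOP targets 2 were more positive and 1 more negative (median 0.31). The test of the interaction was the least stable: 1, 7, 6 and 1 genes passed the threshold without column 1, 2, 3 or 4, 53 without TG column 2 and 4281 without TG column 4, where the lone library of a pair was assumed to vary like the rest. In the 4 fits without a column of cells not given TG, 0 or 1 ATF6 target was called. KIAA1731, a centrosomal protein, had 50.3 and 44.3 CPM in columns 1-2 without TG, against 53.6 and 57.8 CPM in columns 3-4 and 58.4 to 102 CPM in siCTRL. With TG it had 21.3 and 16.8 CPM in columns 1-2, against 86.7 and 78.1 CPM in columns 3-4 and 104 to 197 CPM in siCTRL, so its pairs came apart in TG (interaction -1.88, SE 0.188, edgeR adjusted p = 0.00671).

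Set against siCTRL, the same lists stood as follows, in comparisons that share the siCTRL libraries. Of all tested genes 15.8% were higher and 16.5% lower in columns 1-2 without TG, and 8.44% and 9.47% in columns 3-4. With TG the shares were 15.7% and 16.6% in columns 1-2, and 10.6% and 9.13% in columns 3-4. Without TG, 8 of 15 ATF6 targets were lower in columns 1-2 (median -0.46) and 1 was lower in columns 3-4 (median 0.20). With TG, 8 were higher in columns 1-2 (median 0.35) and 3 in columns 3-4 (median 0.23). Of 34 XBP1s targets, 9 were lower and 1 higher in columns 1-2 without TG, and 0 lower and 2 higher in columns 3-4, while with TG 13 were higher in columns 1-2 and 5 in columns 3-4. PERK-ATF4-CHOP targets were lower for 28 of 36 in columns 1-2 and for 11 in columns 3-4 without TG (medians -0.86 and -0.30), and for 9 and 3 with TG (medians -0.16 and -0.10). In columns 3-4 with TG, the 5 higher XBP1s targets and the 3 lower PERK-ATF4-CHOP targets were near the shares of all genes.

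**Figure D4:**
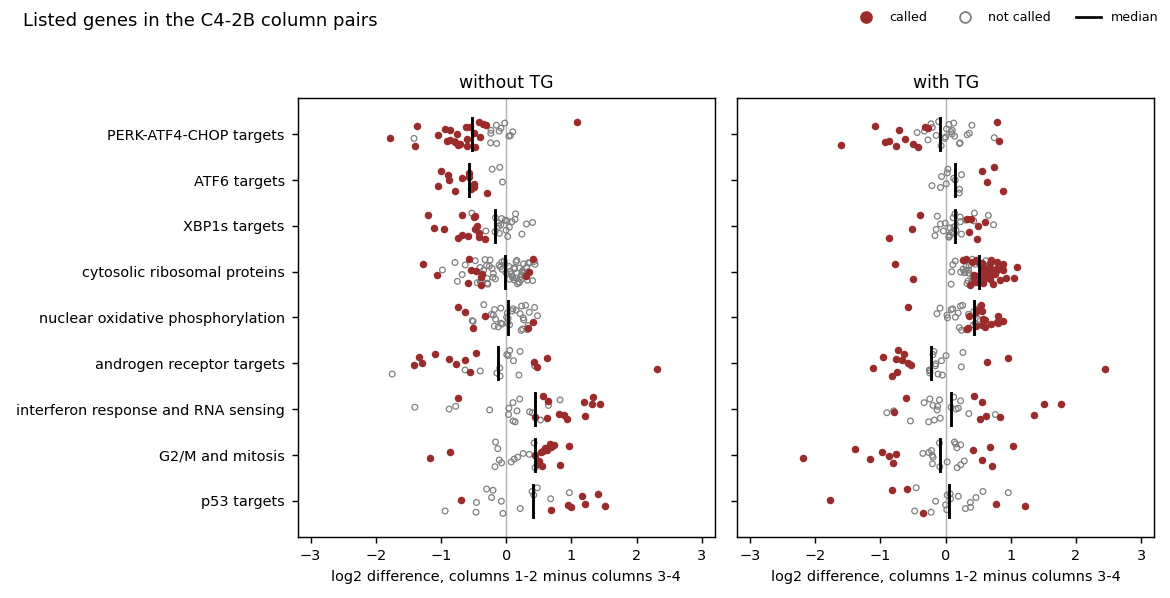
Log2 difference between columns 1-2 and columns 3-4 on the x axis for the members of 9 gene lists, without TG (left) and with TG (right), where each point is a gene, filled when its edgeR adjusted p is under 0.05, and the bar is the median of the list. The ATF6 targets sit mostly below 0 without TG (median -0.57) and above 0 with TG (median 0.15), and the ribosomal proteins are centred at -0.02 without TG and 0.51 with TG.

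More genes of translation and respiration were higher than lower in columns 1-2 with TG. The shares of all tested genes were 14% higher and 16.4% lower with TG, 14.4% and 13% without TG, and 13.2% higher over both states. Of 73 cytosolic ribosomal proteins 42 were higher and 2 lower with TG (median 0.51), while 3 were higher and 9 lower without TG (median -0.02) and 21 were higher over both states (median 0.23). RPL31, of the large subunit, had 139 and 137 CPM in columns 1-2 with TG, against 96.4 and 100 CPM in columns 3-4 and 80.3 to 148 CPM in siCTRL. RPS26, of the small subunit, went the other way, with 62.6 and 53.2 CPM in columns 1-2, against 92.1 and 106 CPM in columns 3-4 and 87.2 to 165 CPM in siCTRL. Ribosomal protein genes have many processed copies, so counts can be split among them. Of 38 nuclear genes of oxidative phosphorylation 17 were higher and 1 lower with TG (median 0.43), and 2 were higher and 4 lower without TG (median 0.02). COX7B, of complex IV, had 139 and 122 CPM in columns 1-2 with TG, against 80.8 and 70.4 CPM in columns 3-4 and 51.1 to 75.6 CPM in siCTRL, while UQCRC1, of complex III, fell over both states (-0.66, SE 0.111, edgeR adjusted p = 0.00186). With a GC and length offset 57 ribosomal and 26 respiratory genes were higher with TG. Over both states the 21 ribosomal genes became 5 without TG column 1, 4 without TG column 4, 9 without column 1 and 10 without column 3, and with TG the 17 respiratory genes became 10 without TG column 1 and 9 without TG column 2.

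Cell cycle genes were below siCTRL in both column pairs, and the pairs differed at some of them. Of 28 G2/M and mitosis genes, 28 were lower than siCTRL in columns 1-2 (median -1.59) and 28 in columns 3-4 (median -2) without TG, and 27 and 28 with TG. Of 28 G1/S and DNA replication genes, 26 were lower in columns 1-2 and 27 in columns 3-4 without TG, and 24 and 27 with TG. Among all tested genes 16.5% were lower in columns 1-2 and 9.47% in columns 3-4 without TG, and 16.6% and 9.13% with TG. In bulk RNA, fewer cells in a phase and less RNA per cell cannot be told apart. Between the pairs, 9 G2/M genes were higher and 3 lower in columns 1-2 (median 0.14), with 13 higher and 2 lower without TG and 5 higher and 7 lower with TG. Among all tested genes 13.2% were higher and 13.1% lower, with 14.4% and 13% without TG and 14% and 16.4% with TG. CDK1, the kinase that starts mitosis, had 38.9 and 39.0 CPM in columns 1-2 without TG and 20.9 and 16.3 CPM with TG, against 90.1 and 85.6 CPM and 88.5 and 80.3 CPM in columns 3-4. Both pairs were under the siCTRL ranges of 276 to 345 CPM and 177 to 229 CPM, and the log2 difference was -1.67 (SE 0.192, edgeR adjusted p = 0.000297). PTTG1, the securin of sister chromatids, had 187 and 175 CPM in columns 1-2 without TG, against 94.3 and 90.8 CPM in columns 3-4 and 227 to 324 CPM in siCTRL. It rose by 0.99 in columns 1-2 relative to columns 3-4 over both states (SE 0.142, edgeR adjusted p = 0.000805), so the members moved both ways. RRM2, a subunit of ribonucleotide reductase, had 70.4 and 71.1 CPM in columns 1-2 without TG, against 31.1 and 34.6 CPM in columns 3-4 and 120 to 185 CPM in siCTRL (log2 difference 0.96, edgeR adjusted p = 0.000423). Leaving out TG column 1 or any 1 column without TG took the 9 higher G2/M genes to 4, and leaving out TG column 4 took them to 5.

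CDKN1A and MDM2, both targets of p53, moved in opposite directions. CDKN1A, the inhibitor p21, had 160 and 151 CPM in columns 1-2 without TG and 200 and 231 CPM with TG, against 54.2 and 54.5 CPM and 90.9 and 94.5 CPM in columns 3-4. The siCTRL ranges were 33.6 to 48.1 CPM and 130 to 184 CPM, so with TG the pairs stood on either side of siCTRL, and the log2 difference was 1.36 (SE 0.102, edgeR adjusted p = 2.02e-05). MDM2, the ubiquitin ligase of p53, had 104 and 108 CPM in columns 1-2 without TG and 126 and 101 CPM with TG, against 178 and 166 CPM and 430 and 345 CPM in columns 3-4. Its log2 difference was -1.24 (SE 0.199, edgeR adjusted p = 0.0019), greater with TG (-1.77) than without (-0.70). Of 22 p53 targets 4 were higher and 3 lower (median 0.24), near the background of 13.2% and 13.1%, and with a GC and length offset 10 were higher.

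Interferon response and RNA sensing genes were more often higher in columns 1-2, and both pairs stood below siCTRL at several of them. Of 29 tested, 10 were higher and 1 lower (median 0.19), with 12 higher and 1 lower without TG and 8 higher and 2 lower with TG. The shares of all tested genes were 13.2% higher and 13.1% lower, with 14.4% and 13% without TG and 14% and 16.4% with TG. OAS3, a sensor of double-stranded RNA, had 20.8 and 21.6 CPM in columns 1-2 without TG and 18.2 and 19.9 CPM with TG, against 7.63 and 8.09 CPM and 7.25 and 6.2 CPM in columns 3-4. The siCTRL ranges were 42.1 to 69.2 CPM and 30.9 to 45.1 CPM, so both pairs were lower than siCTRL, and the log2 difference between them was 1.47 (SE 0.119, edgeR adjusted p = 3.47e-05). STAT2, a transducer of type I interferon signals, was the member that fell (-0.67, SE 0.107, edgeR adjusted p = 0.00177). Against siCTRL without TG, 2 were higher and 7 lower in columns 1-2, beside 15.8% and 16.5% of all tested genes. In columns 3-4, 1 was higher and 13 lower, beside 8.44% and 9.47%. DESeq2 called 7 of them higher without TG, and 5, 7 and 5 were left without column 2, 3 or 4. Of 10 tested NF-kB and inflammatory response genes 3 were lower and 0 higher, among them ICAM1, an adhesion molecule, with 8.55 and 10.8 CPM in columns 1-2 without TG, against 33.3 and 35.1 CPM in columns 3-4 and 17.4 to 23.8 CPM in siCTRL (log2 difference over both states -1.65, SE 0.136, edgeR adjusted p = 4.26e-05).

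Androgen receptor targets were lower in columns 1-2 more often than higher, although both pairs stood above siCTRL at many. Of 26 tested, 10 were lower and 4 higher (median -0.33). Among all tested genes 13.1% were lower and 13.2% higher, so the higher targets were near that share. SLC45A3, a prostate solute carrier, had 70.9 and 70.1 CPM in columns 1-2 without TG and 33.3 and 33.0 CPM with TG, against 162 and 195 CPM and 64.6 and 63.9 CPM in columns 3-4. With siCTRL at 51.3 to 77.3 CPM and 17.5 to 31.9 CPM, columns 3-4 were the pair that stood apart, and the log2 difference was -1.15 (SE 0.106, edgeR adjusted p = 0.000102). PMEPA1, a transmembrane protein that dampens androgen and TGF-beta signals, had 81.1 and 77.7 CPM in columns 1-2 without TG, against 147 and 145 CPM in columns 3-4 and 57.7 to 75.2 CPM in siCTRL (log2 difference over both states -0.82, edgeR adjusted p = 0.000234). Against siCTRL without TG, 13 of the 26 were higher and 4 lower in columns 1-2 (median 0.33), and 14 were higher and 2 lower in columns 3-4 (median 0.70). The shares of all tested genes were 15.8% and 16.5% in columns 1-2, and 8.44% and 9.47% in columns 3-4, near those of the lower targets.

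Genes near MOCOS in metabolism were tested as a list of purine breakdown and molybdenum cofactor genes. Of 17 tested, 1 was higher and 4 lower (median -0.13), beside 13.2% higher and 13.1% lower among all tested genes. MARC1 and MARC2, the mitochondrial enzymes that also carry a molybdenum cofactor, moved in opposite directions. MARC1 had 119 and 117 CPM in columns 1-2 without TG and 57.9 and 52.6 CPM with TG, against 163 and 164 CPM and 113 and 115 CPM in columns 3-4 (log2 difference -0.76, SE 0.117, edgeR adjusted p = 0.0016). MARC2 had 50.0 and 43.4 CPM in columns 1-2 without TG and 47.9 and 41.8 CPM with TG, against 27.4 and 25.9 CPM and 32.9 and 26.6 CPM in columns 3-4 (0.70, SE 0.117, edgeR adjusted p = 0.00197). The pairs overlapped in neither gene in either state. MOCS1, which makes the first intermediate of the cofactor, had 20.2 and 22 CPM in columns 1-2 without TG, against 38.6 and 39.2 CPM in columns 3-4 and 26.8 to 33.9 CPM in siCTRL, with a log2 difference over both states of -0.64 (SE 0.132, edgeR adjusted p = 0.00608). Of 17 genes of purine synthesis and salvage 2 were higher and 4 lower, the higher ones near the share of all tested genes. IMPDH1, the step from inosine to xanthosine monophosphate, had 16.6 and 18.9 CPM in columns 1-2 without TG and 21.9 and 26.4 CPM with TG, against 77.3 and 64.1 CPM and 37.0 and 55.2 CPM in columns 3-4. With siCTRL at 49.2 to 79.8 CPM and 31.1 to 57.9 CPM, columns 1-2 were the pair below siCTRL (log2 difference -1.46, SE 0.229, edgeR adjusted p = 0.00137).

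Lipid genes gave single members with large differences rather than a shift of the lists. Of 23 cholesterol genes 6 were higher and 4 lower (median 0.05), beside 13.2% higher and 13.1% lower among all tested genes. IDI1, an isomerase of isoprenoid synthesis, had 42.7 and 40.2 CPM in columns 1-2 without TG and 92.5 and 64.4 CPM with TG, against 126 and 131 CPM and 252 and 204 CPM in columns 3-4 (log2 difference -1.58, SE 0.127, edgeR adjusted p = 3.47e-05). HMGCS1, which makes the precursor of mevalonate, had 490 and 458 CPM in columns 1-2 without TG, against 268 and 263 CPM in columns 3-4 and 193 to 268 CPM in siCTRL (0.65 over both states, edgeR adjusted p = 0.0031). Neighbouring steps of 1 pathway thus differed in opposite directions. CROT, the carnitine octanoyltransferase of peroxisomes, had 107 and 101 CPM in columns 1-2 without TG, against 43.5 and 40.3 CPM in columns 3-4 and 8.74 to 13.7 CPM in siCTRL. Both pairs stood far above siCTRL, by 3.32 in columns 1-2 and 2.00 in columns 3-4 on the log2 scale, and the pairs differed by 1.11 over both states (SE 0.117, edgeR adjusted p = 0.000247). Of 26 fatty acid oxidation genes 4 were higher and 3 lower (median 0.12), and of 18 fatty acid synthesis genes 3 were higher and 1 lower (median 0.06).

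Transcripts of the proteins through which an siRNA acts were also measured. Of 15 genes of small RNA silencing 1 was higher and 3 lower (median -0.09), and these 4 calls include the 3 TNRC6 scaffolds that bind Argonaute. Among all tested genes 13.2% were higher and 13.1% lower. TNRC6A had 271 and 272 CPM in columns 1-2 without TG and 280 and 273 CPM with TG, against 157 and 151 CPM and 219 and 212 CPM in columns 3-4 (log2 difference 0.59, SE 0.102, edgeR adjusted p = 0.00275). TNRC6B had 136 and 141 CPM in columns 1-2 without TG and 79.0 and 72.0 CPM with TG, against 183 and 196 CPM and 155 and 150 CPM in columns 3-4 (-0.73, SE 0.120, edgeR adjusted p = 0.00194). TNRC6C fell by 0.76 on the log2 scale (SE 0.138, edgeR adjusted p = 0.00286). AGO2, the Argonaute that cuts its target and a gene chosen after its values were seen, was not called (-0.08).

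Other lists held members of both directions. Of 25 autophagy and lysosome genes 2 were higher and 4 lower (median -0.01): CTSL, a lysosomal protease, had 163 and 169 CPM in columns 1-2 without TG, against 45.8 and 52.4 CPM in columns 3-4 and 129 to 213 CPM in siCTRL. GABARAPL1, an autophagosome protein, had 28.9 and 26.3 CPM in columns 1-2 without TG, against 90.0 and 95.8 CPM in columns 3-4 and 65.1 to 77.8 CPM in siCTRL. CTSL was thus lower than siCTRL in columns 3-4, and GABARAPL1 was lower than siCTRL in columns 1-2. Their log2 differences over both states were 1.82 and -1.90 (SE 0.091 and 0.129, edgeR adjusted p = 4.37e-06 and 1.63e-05). Of 15 TGF-beta and mesenchymal genes 5 were higher and 2 lower (median 0.33): the ligand TGFB2 rose by 1.95 and its receptor TGFBR2 fell by 1.90 on the log2 scale (edgeR adjusted p = 0.000546 and 0.000764), both at low levels. Of 25 hypoxia and glycolysis genes 3 were higher and 7 lower (median -0.03, against -0.003 for all genes and a background of 13.2% and 13.1%). Without TG 1 was higher and 9 lower (median -0.26), and with TG 7 were higher and 5 lower (median 0.06). Among them was PFKP, a phosphofructokinase, at 3.79 and 4.86 CPM in columns 1-2 without TG, against 20.5 and 14.3 CPM in columns 3-4 and 22.4 to 39.5 CPM in siCTRL. Of 19 heat shock genes 4 were higher and 5 lower (median 0.05), with HSP90AB1, a cytosolic chaperone, higher by 0.67 and BAG3, a co-chaperone, lower by 0.77, and of 20 NRF2 targets 3 were higher and 3 lower. SYP, which encodes the vesicle protein synaptophysin and is used as a neuroendocrine marker, had 6.88 and 6.79 CPM in columns 1-2 without TG and 21.5 and 20.6 CPM with TG, against 3.57 and 3.21 CPM and 6.10 and 6.54 CPM in columns 3-4. The 6 neuroendocrine markers in the table summed to 8.77 to 23.7 CPM in columns 1-2, 4.28 to 7.49 CPM in columns 3-4 and 5.21 to 12.5 CPM in siCTRL. SYP and ENO2, another of the 6, made up nearly all of each sum, and 1 marker was at 0 in every C4-2B library. ENO2 had 1.90 to 2.81 CPM in columns 1-2, 0.604 to 1.54 CPM in columns 3-4 and 1.33 to 3.12 CPM in siCTRL.

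The same columns of LNCaP, the parent line, differed at 3680 of 13921 genes (26.4%; 1671 higher, 12%, and 2009 lower, 14.4%; 2191 higher and 1640 lower with upper-quartile scaling). In LNCaP 2.26% of tested genes were higher and 2.05% lower by at least 1 log2. No control library is shared between these comparisons, so their calls can be set against each other. Of 13576 genes tested in both lines, 2361 were called in the same direction, which is 65.1% of the 3628 called in C4-2B and 65.2% of the 3621 called in LNCaP, and 7 were called in opposite directions. The log2 differences had a Pearson correlation of 0.74 across genes, which are not independent replicates. Of 769 genes that differed by at least 1 log2 in C4-2B, 574 were called in the same direction in LNCaP (74.6%) and 1 in the opposite one. POMP had 96.5 and 88.8 CPM in columns 1-2 of LNCaP without TG, against 11.1 and 11.3 CPM in columns 3-4 and 87.6 to 109 CPM in siCTRL. STAMBP had 12.1 and 11.4 CPM in columns 1-2 of LNCaP, against 55.5 and 54.8 CPM in columns 3-4 and 43.6 to 51.9 CPM in siCTRL. In LNCaP columns 3-4 thus lay below siCTRL at POMP, and columns 1-2 lay below it at STAMBP, as in C4-2B. The LNCaP log2 differences were 2.69 for POMP, 2.52 for NIPSNAP3A, 2.00 for ELL2, 2.00 for SMIM13, -2.59 for STAMBP, -2.45 for RAB31, -2.33 for NIPSNAP1 and -2.02 for RNF20. GTCAGGA was held by 49.1% of the 234 LNCaP genes lower by at least 1 log2, against 17.9% of all tested, and CTGCTAT by 22% of the 259 higher ones, against 11.2%.

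**Figure D5:**
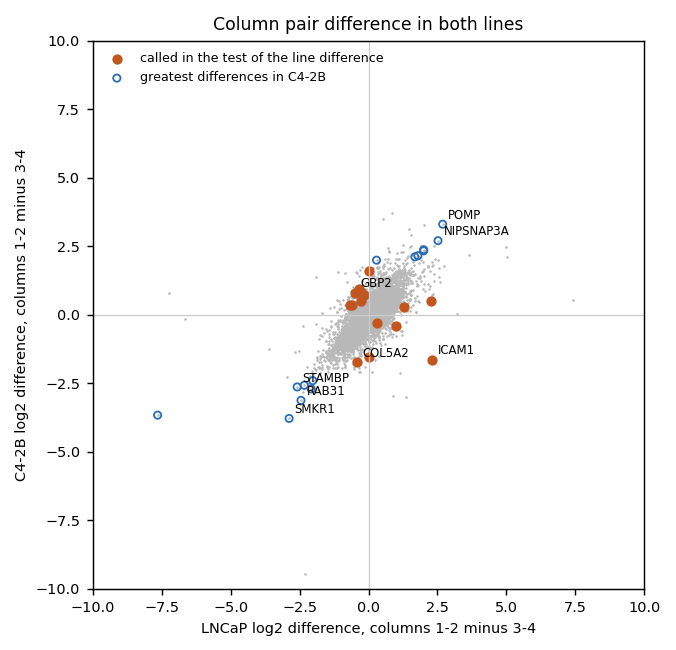
Log2 difference between columns 1-2 and columns 3-4 of each gene tested in both lines, C4-2B on the y axis and LNCaP on the x axis, where grey points are genes, filled orange points are the genes whose difference itself differed between the lines and open circles are the named genes with the greatest differences in C4-2B. The circle at the far left is VCX, which was at 0 in columns 1-2 of LNCaP, so its place there is no bound. The cloud runs along the diagonal (Pearson correlation 0.74), and ICAM1, which is near 0 CPM in LNCaP, stands off it at -1.65 in C4-2B and 2.31 in LNCaP.

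MOCOS differed between the column pairs by -0.74 in C4-2B and by -0.41 in LNCaP, where the test did not pass (edgeR adjusted p = 0.104). In LNCaP it passed with limma-voom (-0.52, adjusted p = 0.0317) and in the edgeR fits without column 1 or column 3 (adjusted p = 0.038 and 0.0432). LNCaP had 3.87 and 3.41 CPM of MOCOS in columns 1-2 without TG, against 3.27 and 3.67 CPM in columns 3-4, which overlap. In TG its levels were 9.35 and 11.8 CPM in columns 1-2, against 15.4 and 18.4 CPM in columns 3-4, which do not. The difference between the lines was -0.36 (SE 0.220, edgeR adjusted p = 0.722). Of 14795 genes, 16 had a column pair difference that itself differed between the lines (0.108%; 1187 at an unadjusted p under 0.05, and 85 by DESeq2 at an adjusted one). COLCA1, a gene of the colorectal cancer associated locus, had 138 and 147 CPM in columns 1-2 of C4-2B without TG, against 387 and 399 CPM in columns 3-4, while LNCaP had 397 and 380 CPM, against 390 and 431 CPM. COL5A2, a fibrillar collagen chain, had 4.76 and 5.79 CPM in columns 1-2 of C4-2B without TG, against 21.0 and 21.3 CPM in columns 3-4, while LNCaP had 20.5 and 20.5 CPM, against 25.9 and 26.9 CPM. The pairs thus stood further apart in C4-2B at both. GBP2, an interferon-induced GTPase, was higher in columns 1-2 of C4-2B (0.80) and lower in those of LNCaP (-0.49), and ICAM1 was at most 1.17 CPM in any LNCaP library. Of the list medians, G1/S genes were 0.01 in C4-2B and 0.39 in LNCaP, where 17 of 28 were higher and 0 lower, and ribosomal proteins 0.23 and -0.01, with 0 higher and 2 lower in LNCaP. The count of 16 came to 6 without TG column 1, any 1 of the 4 columns without TG in C4-2B, TG column 3 of LNCaP or column 2 of LNCaP without TG, to 8, 9 and 9 without TG column 1, 2 or 4 of LNCaP, and to 41 without TG column 3 of C4-2B.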

How the data were processed

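PolyA RNA of LNCaP and C4-2B was sequenced. The authors deposited a merged gene table of estimated counts made from the reads and not normalised, of which 100% of the values above 0 are not whole numbers. Salmon 1.5.2, STAR 2.6.1d, hg38, cutadapt 3.4, Trim Galore 0.6.7 and FastQC 0.11.9 are named, without their roles, per the submitters' processing notes. Reads of near-identical genes can be split by such estimates.

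Counts were rounded and genes filtered by filterByExpr. The main test was edgeR's quasi-likelihood F-test (edgeR 4.0.16, R 4.3.3) with TMM factors, TG as a covariate and Benjamini-Hochberg adjustment, called under 0.05. Log2 differences are columns 1-2 minus columns 3-4. CPM is relative to TMM-scaled library size. Alternatives were upper-quartile factors, DESeq2 1.42.0, limma-voom 3.58.1, no filter, a replicate block, all 16 C4-2B libraries in 1 fit, a GC and length offset (known for 93.5% of tested genes) and leaving out each library. The offset within each TG state and for the interaction, the fit without TG columns 2 and 3, the crossed block and the other word settings were chosen after seeing the data. Depth is given with the library totals.

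The members and lists were chosen with earlier results of these data known. Named were MOCOS, XDH and AOX1; the 8 greatest rises and 8 greatest falls among called genes of at least 5 CPM whose pairs did not overlap in either TG state; up to 3 called members of each list with the smallest adjusted p; and the 3 greatest rises and falls of the interaction and of the line difference. Other names are marked as chosen after their values were seen. A gene and a site that these rules select are not reported here. Tested on simulated data with 14144 genes, the column pair test recovered 97% of 100 changes of log2 size 1 and 100% of those of size 2, and called 11 unchanged genes. The interaction test (14148 genes) recovered 60% and 98% and called 10. The simulation gave every gene the same spread, placed changes only in genes with higher counts and held no GC trend. Its rates therefore need not hold for these libraries.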

Additional observations from a re-analysis of the deposited data

Results flagged for a closer look

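In 8 of 76 groups of 4 C4-2B libraries, siCTRL or siMOCOS, 1 library stood past Dixon's 95% critical value. By chance about 1 in 20 is flagged. The siMOCOS groups mix the column pairs, so 1 library can hardly stand apart in genes named for their pair difference. That rate is therefore no measure for siCTRL alone, and all 8 flagged libraries were siCTRL. These were siCTRL library 2 without TG for NIPSNAP3A (15.2 CPM, against 36.5 to 40.4 CPM in the others), CPNE4 (1.86 CPM, against 1.08 to 1.14 CPM) and NIPSNAP1 (95.7 CPM, against 124 to 127 CPM). With TG, siCTRL library 3 stood apart for POMP (108 CPM, against 128 to 131 CPM), RAB31 (10.8 CPM, against 6.64 to 7.32 CPM), MPLKIP (6.88 CPM, against 13.7 to 14.3 CPM) and RNF20 (201 CPM, against 131 to 133 CPM), and library 2 for SCARA3 (12.6 CPM, against 11.4 to 11.6 CPM). The deviation of siCTRL library 2 without TG followed GC content with a Spearman correlation of -0.13, against -0.64, 0.43 and 0.52 in libraries 1, 3 and 4. That of library 3 with TG followed it with -0.31, against 0.09, 0.40 and 0.06 in libraries 1, 2 and 4. With length these 2 libraries had correlations of 0.18 and 0.20, against at most 0.01 in the other C4-2B siCTRL libraries. No siCTRL library enters the comparison of the column pairs.

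The difference between the column pairs depended on TG, by the edgeR interaction term in log2, for SMIM13 (-0.676), TMTC1 (-1.57), RNF20 (-1.02), KRT80 (-2.15), KIAA1731 (-1.88), FAM47E-STBD1 (-2.33), HERPUD1 (0.836), CDK1 (-1.01), MDM2 (-1.07), TNRC6A (-0.458), TNRC6B (-0.563), TNRC6C (-0.618), MARC1 (-0.568), IMPDH1 (1.06) and DNAJB4 (-0.693). KRT80 was near the floor without TG, at 0.704 and 1.38 CPM in columns 1-2, against 0.274 and 0.204 CPM in columns 3-4. With TG its pairs overlapped, at 32.1 and 42.5 CPM, against 33.7 and 43.6 CPM. Its interaction did not pass with limma-voom (adjusted p = 0.124) or in edgeR with upper-quartile factors (adjusted p = 0.0667). LOC102723728 had an interaction of 6, with 1.62 and 1.88 CPM in columns 1-2 without TG, against 31.0 and 33.7 CPM in columns 3-4, and 20.6 and 23.8 CPM, against 5.88 and 6.89 CPM, with TG. Its siCTRL libraries ranged from 0.586 to 27.4 CPM without TG and from 0 to 30.8 CPM with TG. Libraries of 1 siCTRL group thus differed about as widely as the column pairs. RNU1-27P (21.3) and BOLA2B (11.5) had libraries at 0 and have near-identical copies, so their fitted values are no bound. Each of these interaction calls was lost in at least 1 leave-one-out fit, except that of LOC102723728, which passed in all 8.

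Between the lines, the column pair difference in C4-2B minus that in LNCaP passed the edgeR test for GBP2 (1.29), PAK1 (1.27), TMSB4X (1.10), ICAM1 (-3.98), COLCA1 (-1.58) and COL5A2 (-1.35). PAK1 and TMSB4X did not pass with limma-voom (adjusted p = 0.0736 and 0.0969) or in most leave-one-out fits, and COL5A2 did not pass in 7 of them. ICAM1 had at most 1.17 CPM in the LNCaP libraries.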

How the results depend on the processing

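No called value of a named gene changed direction under any alternative run. The C4-2B column pair count of 3767 genes came to 5683 with a GC and length offset, 5655 without TG columns 2 and 3 (chosen after seeing the data), and 2386 to 4740 when 1 library was left out. Deviations from the mean of each 2 libraries correlated between the TG states at 0.12 for columns 1-2 and at -0.11 for columns 3-4. The 2 libraries of a pair deviate equally in opposite directions, so each pair gives 1 value. These values do not settle whether the replicate numbers pair the libraries. A random replicate block gave 5790 genes in the column pair difference, a fixed replicate block took the interaction count of 1408 to 629, and crossed numbers, chosen after seeing the data, gave 5037. Left-out libraries gave 1351 to 5345 genes without TG, 2691 to 5077 with TG and 1 to 4281 in the interaction. Against siCTRL they gave 2418 to 4996 for columns 1-2 and 1179 to 2599 for columns 3-4 without TG, and 2948 to 4794 and 1498 to 3342 with TG. The LNCaP count was 2469 to 4022. The line difference of 16 genes came to 85 with DESeq2, 43 with no filter on low counts and 6 to 41 when 1 library was left out. The causes were not tested. With 2 libraries a side within a TG state, leaving out 1 leaves a pair with a lone library, which limits the tests within a state and of the interaction. Of 150 named values, 145 kept their side of the threshold with upper-quartile factors, 143 with limma-voom, and 146 of 148 with DESeq2. With the GC and length offset 119 of 126 kept it, and with the fixed replicate block 15 of 21 interaction values. A smaller share than with upper-quartile factors kept it when any 1 C4-2B knockdown column without TG, or C4-2B TG column 1, 2 or 4, was left out.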
